A study of Drosophila montana with 23 samples.

Results

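The gene described here is CG17928, known by its D. melanogaster annotation symbol, which encodes a protein with a cytochrome b5-like domain and a fatty acid desaturase domain. Its RNA was measured in whole females of Drosophila montana with a custom Agilent one-colour microarray that held probes for 218 of the 219 genes listed for it, and CG17928 was 1 of these 218. The gene was picked for description with its levels in these samples already known, and all differences between groups given for it below are therefore a description without a test. Its probes were found by name, and 4 of the 1850 gene probes on the array carried the name CG17928. The probe with the highest mean log2 intensity over 22 of the 23 arrays, called forward probe 2 below, gives the values of the gene. It was not chosen by a difference between groups. The position of CG17928 in the D. montana genome was not analysed here.

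All flies belonged to the isofemale strain 175OJ8, and each array was hybridised with RNA of 2 pooled females that had lived in a climate chamber programmed with the yearly course of day length and temperature of northern Finland. Non-diapausing females that had entered the chamber under long summer days were sampled at 7 days, early in egg maturation (7ND, 2 arrays), and at 50 days (50ND, 3 arrays). Females that had entered it under the short days of late summer were sampled at 7 days, when diapause began (7D), at 50 days in autumn diapause (50D) and at 150 days in winter diapause (150D), with 3 arrays each. A further group, which had spent its first days under conditions that prevent diapause, had overwintered with mature ovaries and was sampled at 150 days (150ND, 3 arrays). Diapausing females were also sampled in spring, at 220 days with undeveloped ovaries (220D, 3 arrays) and at 250 days, after diapause had ended and the ovaries had matured (250D, 3 arrays). Summer and autumn groups of the same age thus differed in day length and temperature as well as in diapause, and both ages and seasons changed together within the diapausing series. The 150D and 150ND females spent the winter in the same conditions. The samples are called biological replicates, and a single strain was used.

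Fatty acid desaturases introduce unsaturated bonds into the acyl chains of lipids, and cytochrome b5 passes them the electrons that the reaction needs. Some desaturases carry the cytochrome b5 domain within their own chain. In insects the products enter membrane lipids, storage fat and the hydrocarbons of the cuticle, and membranes with more unsaturated lipids stay fluid at lower temperatures. Reproductive diapause is a state in which the ovaries stay undeveloped while the fat body keeps its reserves through winter.

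The level of CG17928 was high in diapausing females and low in non-diapausing females at each of the 3 ages that had both. On the normalized log2 intensity scale, the 12 arrays of diapausing females (7D, 50D, 150D and 220D) lay between 7.99 and 9.29 with a median of 8.86. The 8 arrays of non-diapausing females (7ND, 50ND and 150ND) lay between 4.94 and 7.73 with a median of 6.70, so that the lowest diapausing array was above the highest non-diapausing one. Such a complete separation of the normalized values, with higher levels in diapause, held for 4 of the 218 genes (1.83%), CG17928, Cat and cyc among them. Cat is the gene of catalase. These genes are named because the count is small, after their values were seen. In unnormalized intensity the separation of CG17928 was not complete. Replicate a of 220D was at 185 there, below replicate c of 50ND (200) and replicates a and c of 7ND (194 and 592). The 3 arrays of 250D, at 7.23, 6.79 and 8.31, reached into both ranges. The samples were whole flies, in which a smaller share of the cells that carry the RNA and less RNA per cell cannot be told apart.

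**Figure D1:**
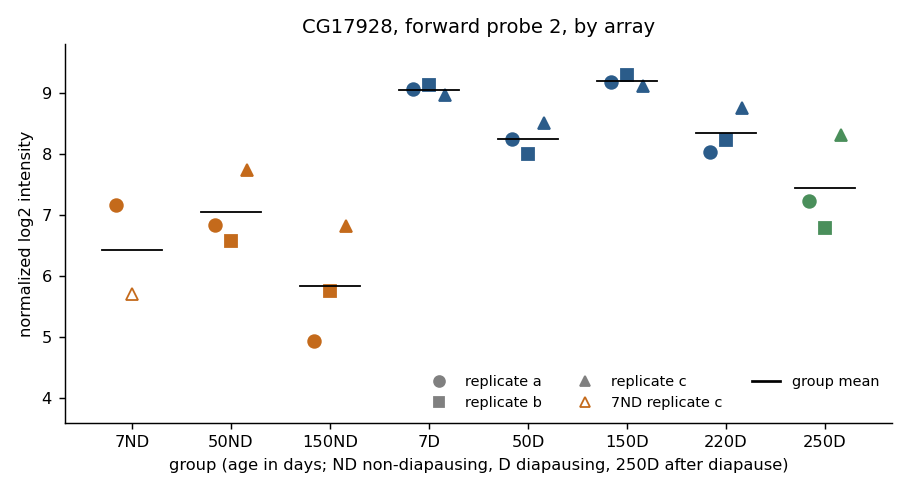
Normalized log2 intensity of CG17928 (forward probe 2, vertical axis) on each of the 23 arrays, by group, with the group mean as a line and replicates a, b and c as symbols. The 4 diapausing groups lie between 7.99 and 9.29 and the 3 non-diapausing groups between 4.94 and 7.73. The open symbol is replicate c of 7ND, an array that stood apart from the rest.

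Among diapausing females, the levels were tight within a group. The 7D arrays had 9.06, 9.13 and 8.97 in replicates a, b and c, a mean of 9.05 ± 0.08 (SD, n = 3). The 150D arrays had 9.17, 9.29 and 9.11, a mean of 9.19 ± 0.09 (SD, n = 3). These groups at the start of diapause and in midwinter overlapped and had the highest means of all 8 groups. The 50D arrays between them in age had 8.24, 7.99 and 8.50 (8.25 ± 0.26, SD, n = 3), and the 220D arrays had 8.03, 8.23 and 8.76 (8.34 ± 0.38, SD, n = 3). In these values 50D and 220D both lay below 7D and 150D without overlap, and the lower level at 50D moved with the scaling, as given below.

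Non-diapausing and post-diapause females varied more. The 50ND arrays had 6.83, 6.58 and 7.73 (7.05 ± 0.61, SD, n = 3), and the 150ND arrays 4.94, 5.76 and 6.82 (5.84 ± 0.94, SD, n = 3). The lowest mean of the 8 groups was thus that of females that had overwintered with mature ovaries. The 250D females had a mean of 7.44 ± 0.78 (SD, n = 3), with replicate c above the other two. The 7ND arrays had 7.16 in replicate a and 5.70 in replicate c, the array that stood apart. Ordered by their means the groups ran 150D, 7D, 220D, 50D, 250D, 50ND, 7ND and 150ND, and of the neighbours in that order only 7D and 220D did not overlap.

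The spread between replicates was larger than the spread between spots of one array. Each probe was printed as 8 spots, and the SD of the 8 log2 values of forward probe 2 had a median of 0.08 over the 23 arrays (0.03 to 0.17). The range among the 3 arrays was 1.88 in 150ND, 1.52 in 250D and 1.15 in 50ND, against 0.16 in 7D and 0.18 in 150D. In unnormalized intensity, the units the scanner gives after background subtraction, the 150ND arrays had 26.6, 43.7 and 103 and the 150D arrays 514, 421 and 527. The order of these groups was therefore visible before any normalization between arrays.

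Facts of the whole set bear on these values. Replicate c of 7ND had a median gene spot intensity of 530, against 19.4 to 49.7 on the other 22 arrays. Of its spots 98.5% were well above background (59.5% to 90.1% elsewhere), and 24.9% were marked as uneven by the scanner software (at most 0.0811% elsewhere). Its column in the authors' normalized table correlated with its own scan at r = 0.698, and that of every other array at 0.99 or more, across probes, which are not independent replicates. In its unnormalized intensities CG17928 was at 592 there and at 194 in replicate a, the reverse of the order after normalization. Differences of CG17928 that use 7ND are given with and without it. A total of 3 slides carried the arrays, and all 8 groups were on each of them but for 7ND, which slide 3 did not hold.

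The 4 probes of CG17928 fell into pairs by strand. Forward probe 2 was well above background on all 23 arrays. Forward probe 1 was so on 22, all but replicate a of 150ND. Over 22 arrays (without 7ND replicate c) forward probe 1 ran 1.05 to 1.49 below forward probe 2 on the log2 scale, with r = 0.99 between them. Both probes read the same 22 libraries, so that the correlation describes the probes and not separate samples. Of the reverse-complement probes, which match the opposite strand, probe 2 was well above background on 3 arrays (7ND c, 150D b and 220D c) and probe 1 on 2 (7ND c and 220D c). Fold changes from these are not given, because they were not well above background on the other arrays.

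A further 2 probes on the array were named G17928, without the first letter of the symbol, and were left out of the gene by its rule. The brighter of them followed forward probe 2 at r = 0.998 over 22 arrays (rho = 0.9955), 0.06 to 0.43 below it. On replicate c of 7ND the probes parted, with 8.29 for the G17928 probe and 5.70 for forward probe 2. The dimmer probe reached 10.62 on that array, against 2.32 to 5.81 on the others. Whether these probes were designed on CG17928 was not tested, since their sequences were not used here.

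**Figure D2:**
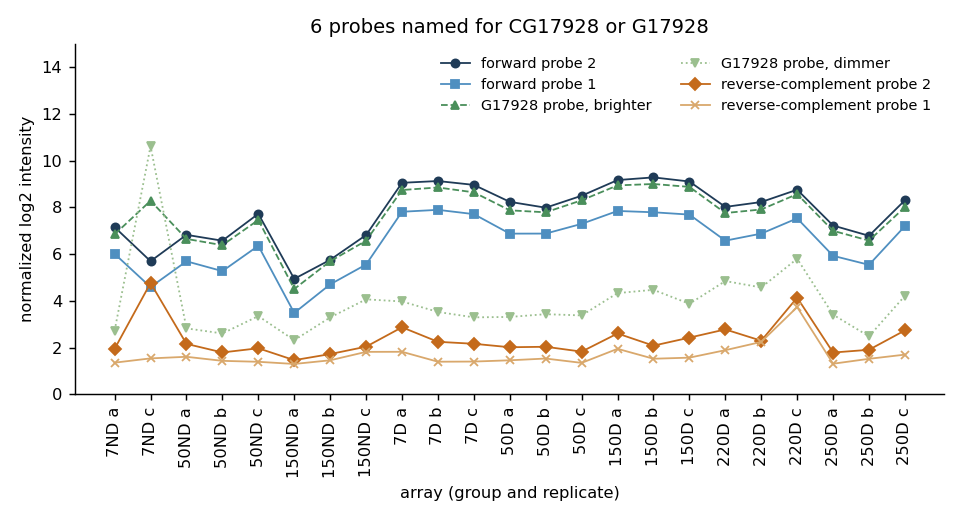
Normalized log2 intensity (vertical axis) of the 4 CG17928 probes and the 2 probes named G17928 on each of the 23 arrays (horizontal axis, grouped). Both forward probes and the brighter G17928 probe run in parallel on all arrays but 7ND c, and the reverse-complement probes lie between 1.30 and 4.77.

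The first question was how CG17928 differed between diapausing and non-diapausing females of the same age. At 150 days, in the same winter conditions, the 150D mean exceeded the 150ND mean by 3.35 on the log2 scale (SE 0.55), a 10.2-fold difference. The arrays did not overlap, the lowest 150D array being at 9.11 and the highest 150ND array at 6.82. Arrays of 150D and 150ND did not overlap for 33.5% of the genes, but the difference of CG17928 was the highest of the 218 genes toward 150D. By size in either direction it ranked 3, as Hsp26 (-5.16) and Hsp23 (-4.33) were lower in 150D by more. It was also the highest toward 150D with no normalization, with normexp background correction and in the authors' table. Scaling to the 75th percentile or to the spike-ins shifts all genes of an array alike. The rank under these scalings is therefore that with no normalization and no separate check. Within the slides the difference was 2.29, 4.23 and 3.53. Replicate c of 150ND, the highest of its group, lay on slide 1. The difference was 2.30 with normexp background correction, which raises the dim values, and 1.83 when the mean of all 4 probes was taken, the dim reverse-complement probes included.

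At 50 days, in autumn against summer, the difference was smaller. The 50D mean exceeded the 50ND mean by 1.20 (SE 0.38), or 2.30-fold, with the lowest 50D array at 7.99 and the highest 50ND array at 7.73. The arrays did not overlap, as held for 72.9% of the genes. The difference ranked 39 of 218 from the highest, and within the slides it was 1.41, 1.41 and 0.77. The difference at 150 days was thus larger than that at 50 days in these means, and whether they differ was not tested for this gene.

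At 7 days the 7D mean exceeded the 7ND mean by 2.62 (SE 0.73), or 6.16-fold, and by 1.94 without replicate c of 7ND, where 7ND is a single array. The arrays did not overlap, as for 53.7% of the genes. The value moved with the scaling. It was 2.08 with 75th-percentile scaling, 1.21 with spike-in scaling, 1.40 in the authors' table and -0.066 with no normalization between arrays, where the median of all genes shifted by -1.47. Relative to the median of all genes in each case, CG17928 was higher by 2.01 in the main values, and by 1.40 with 75th-percentile scaling or none. The brighter G17928 probe gave 1.18.

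Through diapause the differences were below 1 on the log2 scale, though the arrays did not overlap. From 7D to 50D the mean was lower (difference -0.81, SE 0.16), with arrays apart as for 68.3% of the genes, and within the slides the difference was -0.82, -1.14 and -0.47. It was -0.22 with spike-in scaling and turned to 0.12 with no normalization, where the medians of all genes shifted by 0.74 and 1.08. From 50D to 150D it was higher by 0.95 (SE 0.16), 1.93-fold, with arrays apart as for 51.4% of the genes. This difference ranked 10 of 218 from the highest. It was 0.87, 1.18 and 0.79 within the slides, 0.47 with no normalization and 0.024 with spike-in scaling, where the median of all genes shifted by -0.73. From 150D to 220D, in spring, the mean was lower (difference -0.85, SE 0.22), with arrays apart as for 42.7% of the genes, and the difference within the slides was -0.88, -0.41 and -1.26. The mean of both forward probes gave -0.82 there. The mean of all 4 probes gave 0.0018, but it includes the reverse-complement probes, which were well above background on 220D c and, for probe 2, on 150D b alone in these groups.

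When diapause ended, the mean of CG17928 was lower again, but the arrays of 250D and 220D overlapped. The 250D mean was below that of 220D (difference -0.90, SE 0.50), and the difference was -1.45, -0.45 and -0.80 within the slides. Replicate c of 250D, at 8.31, lay above replicates a and b of 220D, and without it the difference was -1.32. Against 150ND, the other group with mature ovaries in the second part of the year, the 250D mean was higher by 1.60 (SE 0.71), or 3.03-fold. These arrays also overlapped, by 250D replicate b at 6.79 against 150ND replicate c at 6.82, which shared slide 1, and within the slides the difference was -0.032, 3.37 and 1.47.

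Among females that never entered diapause, the arrays of neighbouring ages overlapped. The 150ND mean was below the 50ND mean (difference -1.20, SE 0.65), and within the slides it was -0.0089, -1.63 and -1.97. It was -0.66 with normexp and -2.20 with spike-in scaling. The difference of 50ND over 7ND was 0.62 (SE 0.81) with both 7ND arrays and -0.12 without replicate c, and it turned with the scaling, to -0.09 with 75th-percentile scaling, -0.024 with spike-in scaling and -0.67 in the authors' table. Its direction is therefore not settled by these arrays.

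**Figure D3:**
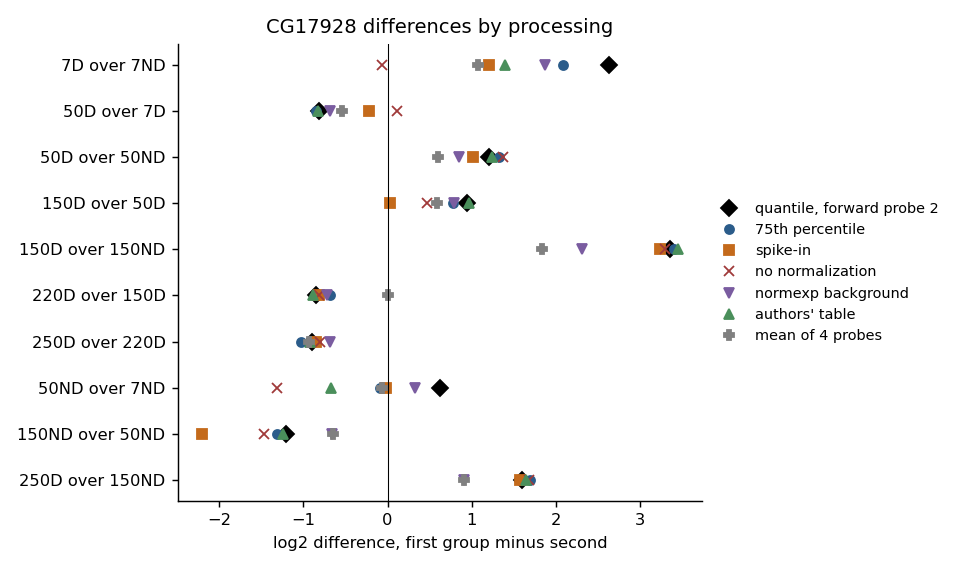
Log2 difference of CG17928 between groups (horizontal axis, first group minus second) in the 10 comparisons, under the main processing (diamonds) and 6 alternatives. The difference of 150D over 150ND stays between 1.83 and 3.44, while 7D over 7ND runs from -0.066 to 2.62.

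Genes of other tissues changed beside CG17928. A list of 7 genes known from the ovary or from maternal RNA, none of them specific to it, had 5 lower members in 7D than in 7ND, 4 in 50D than in 50ND and 4 in 150D than in 150ND, and 3 higher members in 250D than in 220D (limma with Benjamini-Hochberg adjustment over all genes). Over all genes, the shares called lower were 13.8%, 10.6% and 4.59%, and the share called higher in 250D over 220D was 8.72%. Without replicate c of 7ND, 6 of the 7 were lower in 7D, where 42 of the 218 genes were called lower. Hsp26 and Hsp23, small heat shock genes transcribed in the ovary as well as after heat, had log2 fold changes of -5.16 and -4.33 in 150D over 150ND (adjusted p = 5.9e-04 and 8.9e-04). All 7 were well above background on all arrays.

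The summed intensity of this list was 20932 to 53866 in the 4 diapausing groups, 304921 to 325921 in 50ND, and 115123 to 323619 in 150ND. The lowest 150ND value was that of replicate c, the array with the highest CG17928 of its group. In 250D the sum was 290800 and 298062 in replicates a and b and 135955 in replicate c, again the array with the highest CG17928. In 7ND it was 271626 in replicate a and 39566 in replicate c, with CG17928 at 7.16 and 5.70. There the lower sum went with the lower CG17928, on the array that stood apart. The part of ovarian RNA in the differences of CG17928 was not tested.

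Markers of muscle, gut and the eye were measured as well. Both muscle genes (Mhc, myosin heavy chain, and sls) were lower in 50D than in 7D, where 10.6% of all genes were called lower. Mhc was higher in 150D than in 150ND (5.5% of all genes called higher). It was lower in 250D than in 220D (13.3% called lower) and in 50ND than in 7ND (8.72% called lower). In these comparisons sls was not called. Its log2 fold changes were 1.52 in 150D over 150ND and -1.77 in 50ND over 7ND. In 250D over 220D it was 0.30, in the other direction than Mhc (-1.35). The summed intensity of Mhc and sls was 46933 to 69463 in 150D and 16084 to 35284 in 150ND. The gut genes Jon25Bi, a digestive protease, and ninaD, a carotenoid receptor, had a summed intensity of 16594 to 39379 in 150D and 10258 to 20156 in 150ND, and ninaD was not well above background on all arrays. In 50D over 7D both gut genes fell (10.6% of all genes called lower), at log2 fold changes of -3.27 for Jon25Bi and -4.72 for ninaD. The sum was 52340 to 82622 in 7D and 5774 to 8104 in 50D. Both were also lower in 50D than in 50ND and higher in 250D than in 220D. Jon25Bi was higher in 150D than in 50D (2.29% called higher). The gene ninaD was higher in 150D than in 150ND (log2 fold change 1.96, adjusted p = 0.0387 in limma), where 5.5% were called higher.

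Of 5 photoreceptor genes, 3 were higher in 7D than in 7ND and 3 in 50D than in 50ND, where 25.7% and 17.9% of all genes were called higher. In 250D over 220D 3 were lower (13.3% of all genes), and in 150D over 150ND none was called (0 of 5, limma). Among them trpl, a channel of the light response, had log2 fold changes of 2.98 in 7D over 7ND, 2.90 in 50D over 50ND and -3.12 in 250D over 220D. The summed intensity of the 5 was 17324 to 21834 in 150D and 12089 to 40175 in 150ND. Of 5 genes known from neurons, 1 was higher in 7D than in 7ND. In 50D over 50ND 1 was higher and 1 lower (10.6% of all genes called lower). The calls at 7 days rest on both 7ND arrays, replicate c among them, which stood apart. Without it the called photoreceptor and neuron genes were not the same, and the neuron list did not keep its direction. The part of these tissues in the differences of CG17928 was not tested.

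The other genes of lipid desaturation on the array were compared over the same 10 comparisons as a list of 7. It held desat1 and desat2, desaturases known in D. melanogaster for cuticular hydrocarbons and, for desat1, for membrane lipids, the desaturase family members CG9747, CG9743, CG15531 and CG8630, and the cytochrome b5-related gene Cyt-b5-r. Of the 70 combinations of gene and comparison, 11 were called higher and 9 lower in limma's test with Benjamini-Hochberg adjustment over the 218 genes and a fold of at least 2. Over all genes 11.4% of such combinations were called higher and 7.75% lower.

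At 50 days, 6 of the 7 were higher in 50D than in 50ND, where 17.9% of all genes were called higher, and the list's median log2 fold change was 1.21 against 0.13 over all genes. CG9747 had the largest change of the list, from 10.89, 10.80 and 10.54 in 50ND to 14.98, 15.58 and 15.24 in 50D. Its log2 fold change was 4.53 (SE 0.46, adjusted p = 2e-06 in limma). CG15531 (2.002), CG8630 (1.43), Cyt-b5-r (1.21), CG9743 (1.09) and desat1 (1.04) were also higher, with adjusted p between 0.00408 and 0.0162, and desat2 was not called. The call of CG9747 was the only one of these 6 that held under every alternative, while the other 5 were lost with spike-in scaling. Single arrays decided the call of desat1, lost without 50ND a, 50ND b or 50D c (adjusted p = 0.0824, 0.0567 and 0.0578), and that of CG9743, whose fold was under 2 without 50ND a. The call of desat1 was also lost with 75th-percentile scaling (adjusted p = 0.0608), and its log2 fold change was 0.997 in the authors' table, a fold under 2. When all probes were averaged, CG9743, Cyt-b5-r and desat1 were not called, at log2 fold changes of 0.47, 0.58 and 0.36 (adjusted p = 0.166, 0.284 and 0.242).

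At 150 days few of the list genes passed the test. Of the 7, CG15531 alone was called higher in 150D than in 150ND, where 5.5% of all genes were, and the list's median was 0.46 against 0.12 over all genes. The CG15531 levels were 14.43, 14.07 and 14.33 in 150D and 10.61, 12.76 and 13.23 in 150ND, a log2 fold change of 2.07 (SE 0.46, adjusted p = 0.00789 in limma). The groups did not overlap, as for 33.5% of the genes. Replicate a of 150ND lay well below b and c, and without it the log2 fold change was 1.29 (adjusted p = 0.0342). The call was lost with spike-in scaling (adjusted p = 0.142) and when only these 2 groups were fitted (adjusted p = 0.105).

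For CG9747 the difference of 150D over 150ND was smaller than that of 50D over 50ND, by -3.47 on the log2 scale (SE 0.65, adjusted p = 0.00467, interaction term in limma). The 150ND levels were 13.54, 15.40 and 15.39. Since 50D and 50ND also differed in season, and 150ND and 50ND in their early conditions, this term is not a change of diapause alone. The same term did not pass this test for the other 6 genes, with adjusted p from 0.0901 for desat1 to 0.975 for CG15531. In 150ND over 50ND CG9747 rose by 4.04 (SE 0.46, adjusted p = 4e-06), whereas CG17928 had its lowest mean in 150ND.

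From 50D to 150D, where the mean of CG17928 was higher by 0.95, 4 of the 7 list genes fell and none rose (4.59% of all genes called lower, 2.29% higher). These were desat1 (-1.69), desat2 (-1.40), Cyt-b5-r (-1.21) and CG9743 (-1.08), with adjusted p between 0.00172 and 0.0245 in limma. The list's median was -1.08 against 0.13 over all genes. For desat1 the levels went from 16.10, 16.39 and 16.46 to 14.54, 14.47 and 14.85, without overlap, as for 51.4% of the genes. The calls of CG9743, Cyt-b5-r and desat1 were lost with 75th-percentile scaling (adjusted p = 0.222, 0.108 and 0.0535), and those of CG9743 and Cyt-b5-r also without any one array of 50D, without 150D a, and without 150D b (CG9743) or 150D c (Cyt-b5-r), with adjusted p of 0.0603 to 0.0988 and 0.0742 to 0.138. With the mean of all probes the same 3 calls were lost, at log2 fold changes of -0.077 for CG9743, -1.03 for Cyt-b5-r and -0.85 for desat1 (adjusted p = 0.92, 0.137 and 0.0357, the last at a fold under 2).

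In the other comparisons between 0 and 2 list genes were called. CG9747 was higher in 7D than in 7ND (2.39, SE 0.52, adjusted p = 0.00187 in limma), where 25.7% of all genes were called higher. The log2 fold change was 1.75 without replicate c of 7ND (adjusted p = 0.0235) and 3.05 without replicate a. The call was lost when only these groups were fitted (adjusted p = 0.158), a fit in which limma called 0 of the 218 genes and 52 had an unadjusted p under 0.05. Without replicate c of 7ND, CG9743, desat1 and desat2 were called there as well, and so were CG15531 in 50D over 7D and desat1 in 220D over 150D. In 50D over 7D CG9747 rose and desat2 fell (11.5% of all genes higher, 10.6% lower). The call of desat2 was lost under 4 alternatives. Its fold was under 2 without 7D replicate c, with no normalization and with the mean of all probes, and its adjusted p in limma was 0.0749 with spike-in scaling. In 220D over 150D desat2 rose and CG9747 fell (3.67% and 1.38%), the former call, at a fold of 2, being lost under 11 alternatives. CG15531 and CG9747 fell in 250D over 220D (13.3% called lower), at log2 fold changes of -2.11 and -2.29 and adjusted p of 0.00228 and 0.00112. This call of CG15531 was lost with spike-in scaling (adjusted p = 0.0645 in limma). In 250D over 150ND CG9747 fell (6.42% called lower), in 150ND over 50ND it rose (7.34% called higher), and in 50ND over 7ND no list gene was called (27.1% higher, 8.72% lower over all genes, limma), as also without replicate c of 7ND.

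**Figure D4:**
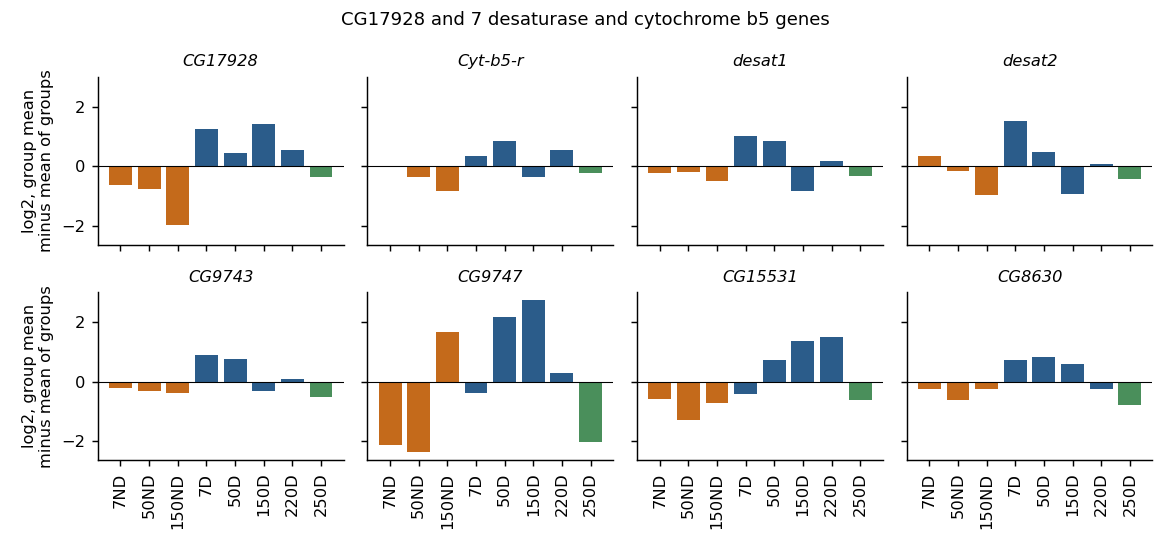
Group mean of normalized log2 intensity minus the gene's mean over the 8 groups (vertical axis) for CG17928 and the 7 list genes, with 7ND from replicate a alone. CG17928 is above its mean in the 4 diapausing groups and lowest in 150ND, whereas CG9747 is above its mean in 150ND and desat1 and desat2 are lowest in 150D or 150ND.

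The list genes followed CG17928 across the arrays to different degrees. Over the 22 arrays Pearson's r with CG17928 was 0.68 for CG8630 and CG15531, 0.59 for CG9743, 0.57 for Cyt-b5-r, 0.50 for desat2, 0.44 for desat1 and 0.26 for CG9747, against a median of 0.11 over the 217 other genes. All genes were read from the same arrays and share their scaling, and arrays of a group are alike. Within the 12 diapausing arrays r was -0.50 for Cyt-b5-r and -0.33 for desat1, and within the 10 other arrays 0.80 and 0.75.

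Among the 5 genes most like CG17928 over the 22 arrays were cyc (r = 0.84), fru (0.82), LanA (0.81) and Mpk2 (0.78). The gene cyc (cycle) encodes a transcription factor of the circadian clock, fru (fruitless) a transcription factor of courtship, LanA a laminin chain of the extracellular matrix and Mpk2 a stress-activated kinase. All 4 were among the first 5 by group means, 3 of them by Spearman's rho and 2 with 75th-percentile scaling. Since the arrays fell into a high and a low set, r was also taken within them. Within the 12 diapausing arrays it was 0.75 for fru and 0.48 for Mpk2, but -0.37 for cyc and 0.01 for LanA. Within the 10 other arrays it was 0.91 for cyc and 0.61 to 0.69 for fru, LanA and Mpk2. For cyc the 7D and 50D arrays lay at 9.84 to 9.96 and the 150D arrays lower, at 9.34 to 9.44, whereas CG17928 was lower in 50D than in 150D.

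The 3 genes least like CG17928 were Hsp67Bc, a small heat shock gene (r = -0.87), hang, a zinc finger gene of stress and ethanol tolerance (-0.84), and Histone_H3.3A, a replacement histone (-0.83). Within the 12 diapausing arrays r was -0.11, -0.03 and -0.59. The gene hang was dim on these arrays, at 3.32 to 4.68, so that its r rests in part on low values. Hsp67Bc lay at 9.57 to 11.01 in the diapausing groups and at 12.34 to 15.24 in the other groups, except for 10.56 in 7ND replicate c. In 150ND it was at 15.24, 14.55 and 12.41 in replicates a, b and c, while CG17928 was at 4.94, 5.76 and 6.82. Its log2 fold change in 150D over 150ND was -3.23 (SE 0.72, adjusted p = 0.00789 in limma).

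**Figure D5:**
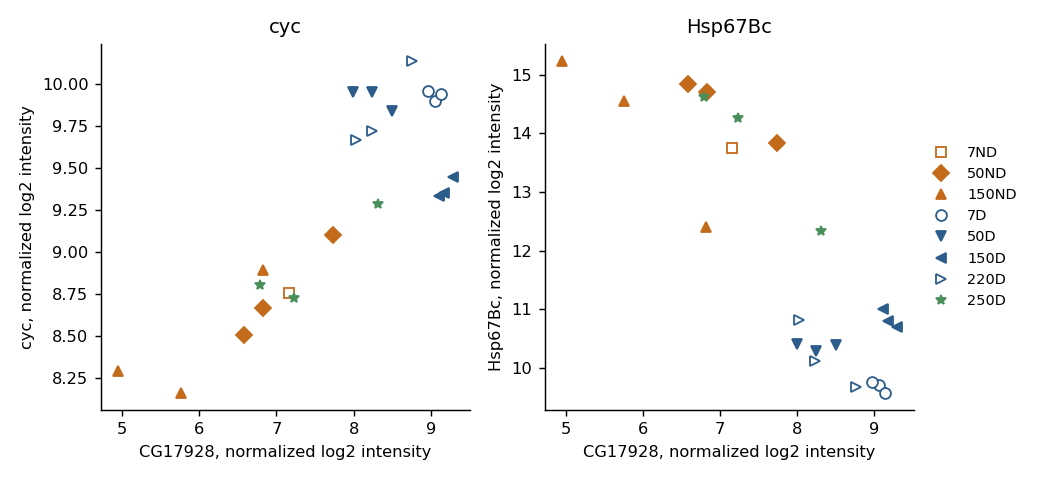
Normalized log2 intensity of cyc (left) and Hsp67Bc (right) against that of CG17928 on 22 arrays, by group. cyc is high where CG17928 is high (r = 0.84) and Hsp67Bc low (r = -0.87), with the 12 diapausing arrays apart from the non-diapausing ones in both.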

How the data were processed

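RNA of 2 pooled females per sample was labelled with Cy3 and hybridised to custom Agilent one-colour arrays, 23 in 8 groups. The deposited intensity values are those of the scanner software (Agilent Feature Extraction), background-subtracted and spatially detrended but not normalized between arrays. The authors also deposited a table of quantile-normalized intensity, 1 value per probe on a linear scale made with limma. Its rows hold no probe names and follow the sorted order of the names, which the profiles over arrays bore out. Its column medians were 5.12 to 5.21 as log2. It was used as an alternative.

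Here log2 of the background-subtracted intensity was quantile-normalized (limma 3.58.1, R 4.3.3) over 14800 gene spots. The 8 spots of a probe were averaged without outlier flags (in 43 cases all spots were flagged, and all were kept). A gene is its brightest probe over 22 arrays (without 7ND replicate c). A probe was well above background on an array where more than 0.5 of its spots were marked so. No spot was saturated. Each fit took all 23 arrays, with a call at an adjusted p under 0.05 over 218 genes and a fold of at least 2, and the fit was tested on simulated data. Levels of different genes are not compared. Arrays carry no depth, and precision is limited by their number.

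Slides come from the array barcodes. Replicate letters were checked as pairs. The residuals of same-letter arrays correlated above 0.1 in 38 of 77 pairs (mean r 0.081) and those of different letters in 40 of 154 (mean r -0.039). The mean correlation was thus higher between arrays of the same letter. The main fit did not take the letters as pairs, and a fit with the letters as a replicate block is given below. The gene, the lists and the tests were chosen with earlier results of these data known. Named are CG17928, the 7 list genes, 4 of the 5 genes most and the 3 least correlated with CG17928, up to 2 genes per marker list, and Cat for a small count. Of the 5, 1 gene is not reported here. The reference used here held no entry for CG17928 by symbol, so no neighbouring genes are named. The G17928 probe and the mean of both forward probes were added after seeing the data. P-values set a difference against the spread between arrays within groups, which the fit estimates from all its groups together. They do not cover the spread between strains, since a single strain was used.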

Additional observations from a re-analysis of the deposited data

Results flagged for a closer look

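The brighter probe named G17928, which is outside the rule for the gene and its main values, was above the 95th percentile of the negative control spots on 23 of 23 arrays. The reverse-complement probes of CG17928 gave signal well above background on 3 arrays (probe 2) and on 2 arrays (probe 1), among them 7ND replicate c and 220D replicate c for both. For CG9747 the difference of 150D over 150ND minus that of 50D over 50ND was -3.47 on the log2 scale (SE 0.65, adjusted p = 0.00467, interaction term in limma). It stayed past the threshold under each alternative run, at -4.10 to -2.63. Season and early conditions differed between these groups as well as diapause.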

How the results depend on the processing

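For CG17928 the difference of 250D over 220D moved by less than the spread between replicates under all alternatives run. With no normalization between arrays 7D over 7ND turned to -0.066 and 50D over 7D to 0.12, 150D over 50D was 0.47 and 50ND over 7ND was -1.32. Spike-in scaling gave 1.21, -0.22, 0.024 and -2.20 for 7D over 7ND, 50D over 7D, 150D over 50D and 150ND over 50ND. The authors' table gave 1.40 and -0.67 for 7D over 7ND and 50ND over 7ND, where the brighter G17928 probe gave 1.18 and -0.73. Normexp background correction gave 1.87 for 7D over 7ND and 2.30 for 150D over 150ND. With the mean of all 4 probes, 220D over 150D turned to 0.0018, and 7D over 7ND, 50D over 7D, 50D over 50ND, 150D over 50D and 150D over 150ND were 1.07, -0.54, 0.60, 0.59 and 1.83. The cause of these changes was not tested. Within slide 1, 7D over 7ND, 150D over 150ND, 50ND over 7ND, 150ND over 50ND and 250D over 150ND were 1.90, 2.29, -0.33, -0.0089 and -0.032. Within slide 2, 7D over 7ND, 50D over 7D, 150D over 50D, 150D over 150ND, 220D over 150D and 250D over 150ND were 3.43, -1.14, 1.18, 4.23, -0.41 and 3.37, and within slide 3, 50D over 7D and 220D over 150D were -0.47 and -1.26. Leaving out a replicate gave 1.94 to 3.34 for 7D over 7ND and 2.89 to 3.84 for 150D over 150ND, and -0.12 to 1.34 for 50ND over 7ND. With the replicate block, 7D over 7ND was 2.72, 50ND over 7ND 0.72 and 150D over 150ND 3.35, and the list calls were 13 higher and 9 lower. The list calls were 15 and 8 with 75th-percentile scaling, 8 and 8 with spike-in scaling, and 9 to 16 higher and 7 to 11 lower without a replicate, the 16 being without 7ND replicate c. Over all genes and comparisons, the calls were 248 higher and 169 lower, 157 higher with spike-in scaling, 160 with the mean of all probes, 159 with only the groups compared, and 203 higher and 303 lower with no normalization. Differences from the reverse-complement probes alone are not given, since these probes were not well above background on most arrays.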
